A study of Rattus norvegicus with 12 samples.

Results

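The response of muscle fibro-adipogenic progenitors to adipogenic induction was compared between cells of rats whose hind limbs had been unloaded for 7 days and cells of control rats. For each gene the change from day 0 to day 3 of induction in control cells was subtracted from the same change in unloaded cells. This contrast uses 8 of the 12 libraries of the series, 2 in each of 4 groups. It was tested in all 13215 genes that had enough counts, of 32622 in the table.

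The cells were primary cultures from the soleus muscle of Rattus norvegicus, grown in DMEM with serum until nearly confluent. Control cells came from rats without suspension, and 7-day cells from rats after 7 days of hindlimb suspension, in which the hind legs bear no weight. Cells of either kind were taken at day 0, or at day 3 of culture in induction medium. That medium held insulin and dexamethasone, each at 1 μM, with 3-isobutyl-1-methylxanthine at a stated dose of 0.5 μM. The labels give no strain, sex or age. Nor do they tie the replicates of a group to different animals or dishes, so the p-values cover only the spread from library to library, part or all of which may be technical. The remaining 4 libraries, from rats after 14 days of suspension, entered the filter, the scaling and the estimate of the spread, but their levels are not part of the contrast.

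Fibro-adipogenic progenitors are mesenchymal cells that lie between muscle fibres and can turn into fat cells or matrix-producing fibroblasts. Insulin, a glucocorticoid such as dexamethasone and a phosphodiesterase inhibitor that raises cAMP together start a cascade of transcription factors that ends in lipid storage. A response can differ between cultures because the starting level differs, because the level reached differs, or both, and the results are ordered accordingly. No culture was kept to day 3 without the inducers, so the change from day 0 to day 3 also holds the added time in culture.

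Each of the 8 libraries held 15105521 to 18757578 counts and 14930 to 15275 genes with at least 1 count. Replicates correlated at 0.9883 to 0.9904 in log2 counts per 1000000 (CPM) over genes. The genes are known here by Ensembl identifiers alone, and 0 of 32622 could be matched to a symbol. The cell type of the cultures was therefore not checked against markers, pathways are not named, and groups of genes are described by their behaviour. In bulk RNA, fewer cells of a type and less RNA per cell cannot be told apart.

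The response differed between 7-day and control cells in 1371 of 13215 genes, 10.4% of those tested, at a false discovery rate (FDR) of 0.05 by the quasi-likelihood test of edgeR. It was more positive in 621 genes (4.70%) and more negative in 750 (5.68%). The differences were mostly under 2-fold. In 661 of the 1371 genes the responses differed by less than 1.5-fold, in 389 by 1.5-fold to under 2-fold and in 321 (2.43% of all genes tested) by 2-fold or more. Among those under 1.5-fold more positive ones prevailed, 361 against 300, and among those of at least 2-fold more negative ones, 203 against 118. The 4 differences between a day 3 and a day 0 library of 7-day cells lay wholly above or below the 4 of control cells in the direction of the call in 1368 of the 1371 genes. Such separation was found in 34.1% of all genes tested.

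**Figure D1:**
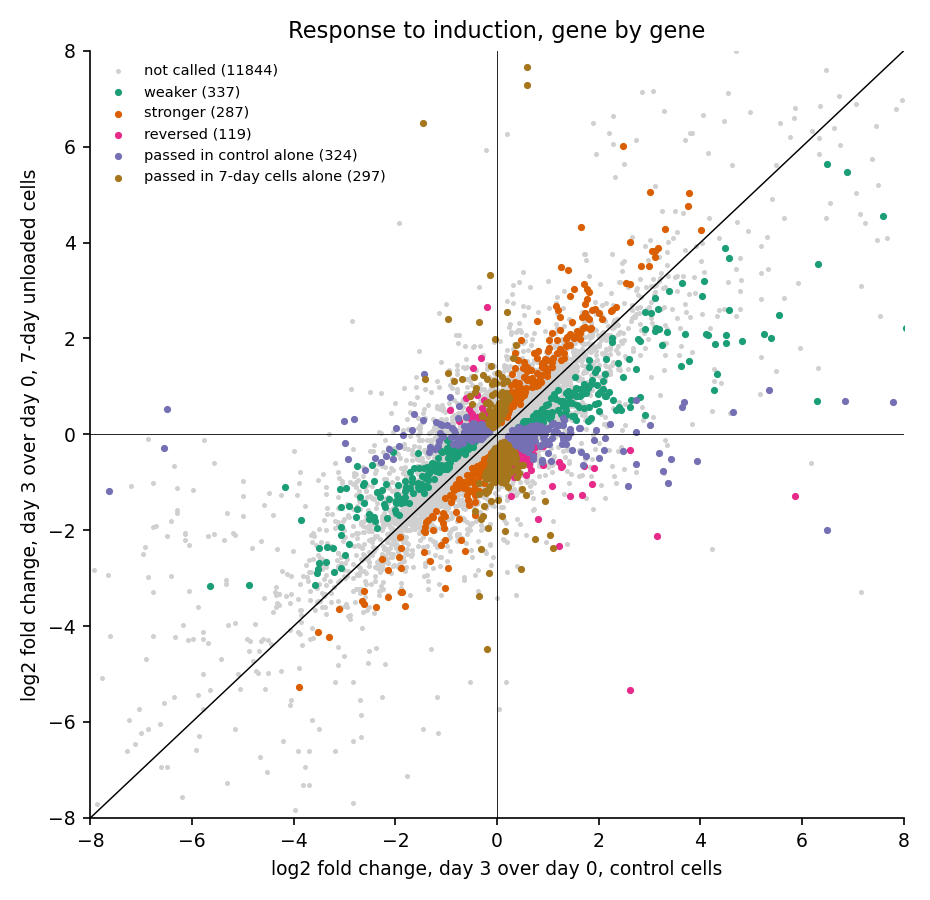
Each point is a gene, with the log2 fold change from day 0 to day 3 in control cells on the x axis and in 7-day cells on the y axis, and a diagonal line of equal response. Genes whose response differed are coloured by class, with 337 weaker, 287 stronger and 119 reversed; the 7 that passed in neither response are not coloured, and 35 genes lie outside the axes.

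For most genes the 2 responses differed by less than 2-fold. In 9177 genes, 69.4% of those tested, the 95% interval of the difference lay within 1 log2 unit of 0, and this held for 8373 of the 11844 genes that were not called. The level of a gene set how much could be seen. Of 1817 genes with a mean above 100 CPM over the 4 groups 24.8% were called, with a median difference of 0.383 log2 units in size. Of 1380 genes under 1 CPM only 1.59% were called, and the interval lay within 1 log2 unit in 0.29%. For genes at such levels a difference of 2-fold was mostly not detectable at this depth.

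In genes chosen on other libraries the median responses of control and 7-day cells were close. Genes that rose or fell at least 2-fold in 14-day cells were chosen by fitting the 14-day libraries alone, whose levels are not part of the contrast, though these cells were unloaded too. The 1059 genes that rose there had a median log2 response of 1.25 in control and 1.36 in 7-day cells. Those that fell, 1359 genes, had medians of -1.50 and -1.45. In 454 of the 1059 rising genes the 7-day response was the smaller of the 2, and in 668 of the 1359 falling genes. The differences called in these sets took both signs. They were 155 positive and 69 negative among rising genes, and 81 positive and 153 negative among falling ones, so that 21.2% and 17.2% were called. Over all genes tested 10.4% were called, and 8.46% of those outside these sets, so more was called in the sets although their medians lay close. The share called also rose with level, from 1.59% under 1 CPM to 24.8% above 100 CPM. Whether the sets differ from the other genes in level was not tested.

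Most of the largest differences were a rise in control cells that in 7-day cells was smaller, reversed or did not pass the test. With genes left out that had at most 3 reads in a group, the responses of 89 genes differed at least 4-fold, 65 more negative and 24 more positive after unloading. The 65 genes took 0.0602% and 0.0638% of the counts in the 2 control libraries at day 0 and 0.622% and 0.613% at day 3. In 7-day cells they took 0.0689% and 0.0644% at day 0 and 0.0966% in each library at day 3. In these sums the groups lay close together at day 0, and at day 3 both control libraries stood far above both 7-day libraries. A few abundant genes hold much of the sums. Gene by gene the groups were less close at day 0, where 43.1% of the 65 genes differed between 7-day and control cells. The median log2 difference of 7-day from control cells was 0.492 at day 0 and -2.33 at day 3. The median gene went from 1.24 to 10.0 CPM in control cells and from 2.38 to 2.48 CPM in 7-day cells. A change in 1 kind of cell alone means here that the response of the other kind did not pass the test. It does not show that the other kind did not respond. Of the 65 genes, 22 rose in control cells alone, 21 rose in both but less in 7-day cells, 11 rose in control and fell in 7-day cells, and 9 fell in 7-day cells alone. One fell in both, more so in 7-day cells, and 1 passed in neither. At day 3 52 of them were lower in 7-day than in control cells and 2 were higher, while at day 0 23 were higher and 5 lower. Over all genes tested 23.0% differed at day 0 (11.7% higher, 11.3% lower in 7-day cells) and 14.2% at day 3 (6.75% higher, 7.43% lower). The genes were chosen on these libraries, so the counts describe them and test nothing. The levels of the 14-day libraries do not enter the contrast, only the filter, the scaling and the estimate of the spread. In these libraries the 65 genes took 0.0607% and 0.0614% of the counts at day 0 and 0.0616% and 0.0609% at day 3. This even sum hides changes of both signs. Of the 65 genes, 20 rose and 25 fell in 14-day cells, where 27.7% and 28.1% of all genes tested did.

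Of the 24 genes with a response at least 4-fold more positive, the median gene was scarce in all groups. It stood at 2.06 CPM at day 0 and 0.923 CPM at day 3 in control cells, and at 1.89 and 3.15 CPM in 7-day cells. Not all members were scarce: ENSRNOG00000023548, described below, stood at 67.7 and 56.7 CPM in control cells at day 0. Sums over the set are weighted towards such members. The summed share of the 24 genes was 0.0199% and 0.0189% of the counts in control cells at day 0 and 0.0220% and 0.0216% at day 3. In 7-day cells it was 0.0107% and 0.0109% at day 0 and 0.0331% and 0.0326% at day 3. At day 0 13 of the 24 were lower in 7-day than in control cells and 6 higher, where 11.3% and 11.7% of all genes were. At day 3 12 were higher and 0 lower, where 6.75% and 7.43% were. These genes too were chosen on the libraries compared, so nothing is read from the counts. Of the 24, 7 rose in 7-day cells alone, 7 fell in control cells alone, 4 rose in both but more in 7-day cells, and 4 fell less. One fell in control and rose in 7-day cells, and 1 passed in neither.

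The 4 identifiers given here are those with the 2 largest differences of each sign among the 1299 called genes that had over 3 reads in each group and reached 5 CPM in a group. Their values were used to choose them.

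ENSRNOG00000010079 was the more abundant of the 2 with a more negative response. In control cells it stood at 4.77 and 2.33 CPM at day 0 and at 279 and 282 CPM at day 3. In 7-day cells it stood at 13.4 and 14.6 CPM at day 0 and at 21.4 and 24.0 CPM at day 3. The groups did not overlap at either day: 7-day cells were higher before induction and lower after it. The log2 response was 6.29 (SE 0.132) in control and 0.697 (SE 0.125) in 7-day cells, a difference of -5.59 (SE 0.192, 95% interval -5.98 to -5.20, edgeR adjusted p = 1.16e-22). The 14-day libraries held 0.792 and 0.900 CPM of it at day 0 and 2.14 and 1.65 CPM at day 3, the lowest levels of the series at both days.

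ENSRNOG00000049388 had the most negative difference, on few reads. In control cells it had 8 and 0 reads at day 0, 0.424 and 0 CPM, and 14.5 and 11.5 CPM at day 3. The 7-day libraries held 2.42 and 1.99 CPM at day 0 and 1.62 and 0.120 CPM at day 3. The 7-day libraries of day 3 differed 30 reads to 2, so the fall in 7-day cells rests mainly on the second of them. The log2 response was 5.86 (SE 0.548) in control and -1.29 (SE 0.512) in 7-day cells, which makes it a reversed gene, with a difference of -7.15 (SE 0.777, adjusted p = 9.85e-09). Without the first control library of day 0 the fitted difference was -12.1, since that group then had 0 reads and its fold no bound, and without the second it was -6.20. Without the first 7-day library of day 3 it was -9.98, and without the second -6.31.

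ENSRNOG00000023548 had the most positive difference, and its levels differed mainly at day 0. Control cells held 67.7 and 56.7 CPM at day 0 and 58.6 and 54.8 CPM at day 3, a log2 response of -0.134 (SE 0.0887) that did not pass the test (adjusted p = 0.208). In 7-day cells it stood at 7.21 and 6.34 CPM at day 0 and at 68.0 and 67.7 CPM at day 3, a log2 response of 3.32 (SE 0.116). The 7-day libraries thus started far below the control libraries and ended slightly above them, with log2 differences of -3.20 at day 0 (SE 0.117, adjusted p = 3.13e-22) and 0.259 at day 3 (SE 0.0885, adjusted p = 0.0432). The difference of the responses was 3.46 (SE 0.149, 95% interval 3.15 to 3.76, adjusted p = 1.33e-19). In 14-day cells the gene stood lower still at day 0, at 0.580 and 1.09 CPM, and higher at day 3, at 115 and 110 CPM.

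ENSRNOG00000012546 was scarce, with 20 and 14 reads in control cells at day 0, or 1.06 and 0.777 CPM, and 2 reads in each library at day 3, or 0.131 and 0.118 CPM. In 7-day cells it stood at 5.58 and 3.98 CPM at day 0 and at 5.60 and 6.42 CPM at day 3. The 7-day libraries were higher than the control libraries at both days. It fell in control cells (log2 response -2.82, SE 0.688) and did not pass the test in 7-day cells (0.329, SE 0.299, adjusted p = 0.374), with a difference of 3.15 (SE 0.755, 95% interval 1.62 to 4.68, adjusted p = 0.00372). The 14-day libraries stood at 0.844 and 0.852 CPM at day 0 and at 0.564 and 1.07 CPM at day 3.

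**Figure D2:**
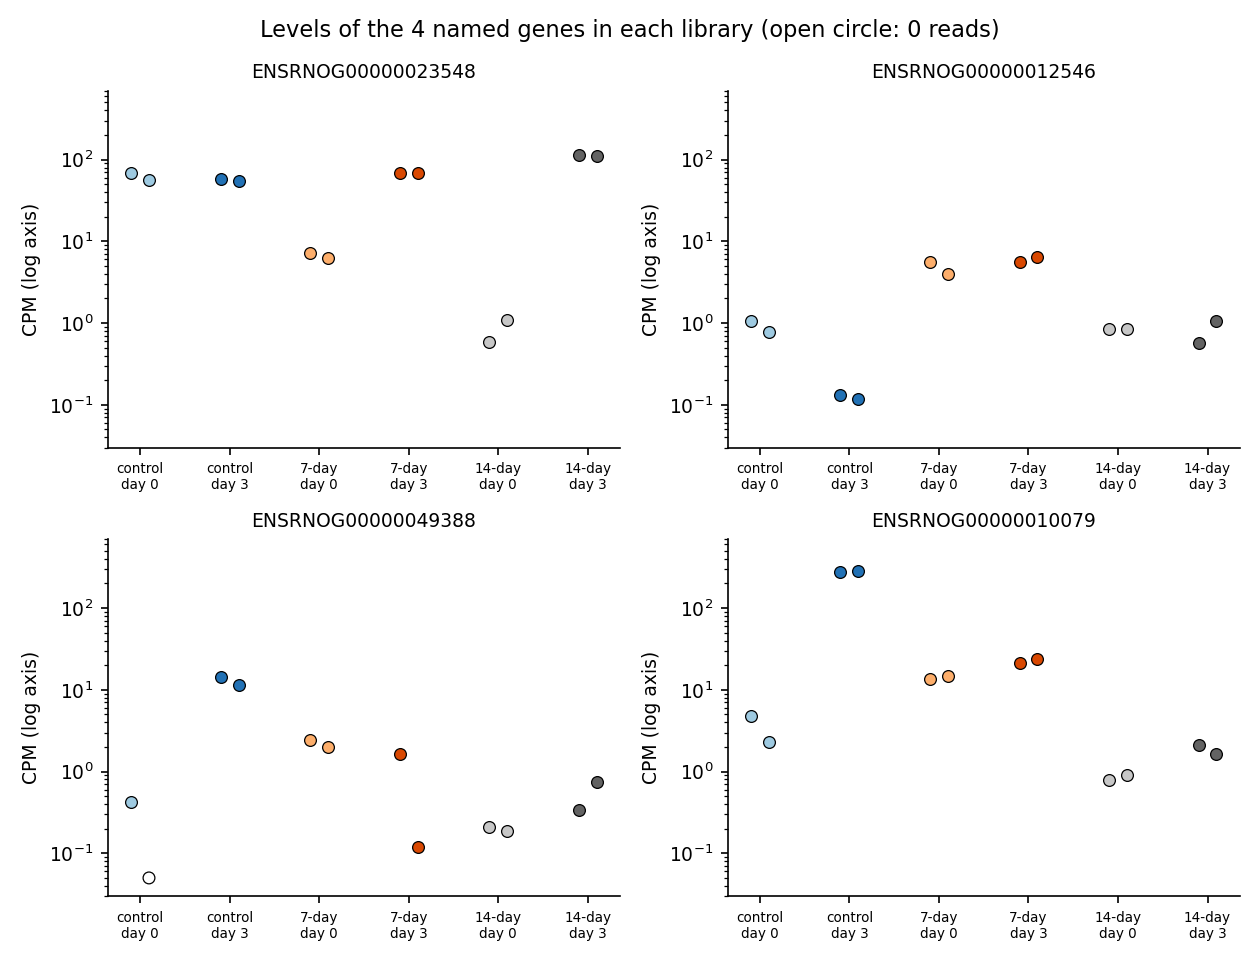
Points are CPM in single libraries on a log axis, 2 per group, for the 4 identifiers; the open circle is a library with 0 reads drawn near the bottom of the axis. ENSRNOG00000023548 differs between control and 7-day cells mainly at day 0, and ENSRNOG00000010079 mainly at day 3, where control cells reach 279 and 282 CPM.

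Called genes were sorted by whether each response passed the test and by its direction. Of all genes tested 25.8% rose and 26.8% fell in control cells, 52.7% in all, and 24.8% rose and 26.9% fell in 7-day cells, 51.7% in all. A weaker response is in the same direction but smaller in 7-day cells, and 337 genes had one. These were split almost evenly into 178 that rose less and 159 that fell less. In 176 of the genes that rose less, those without a group at or under 3 reads, the median log2 response of 7-day cells was 0.465 of that in control cells. The median response was a 2.96-fold rise in control and a 1.61-fold rise in 7-day cells. Genes that fell less did so with a median ratio of 0.564, from a 2.66-fold fall in control to a 1.74-fold fall in 7-day cells.

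Genes that rose less took 1.14% and 1.16% of the counts in control cells at day 0 and 3.72% and 3.75% at day 3. In 7-day cells their share was 1.46% and 1.43% at day 0 and 3.07% and 3.06% at day 3. The 7-day libraries were above the control libraries at day 0 and below them at day 3. At day 0 88 of the 178 genes were higher in 7-day cells and 17 lower. At day 3 99 were lower, 19 higher and 60 did not pass the test. Over all genes tested these shares were 11.7% and 11.3% at day 0, and 7.43% lower and 6.75% higher at day 3. These comparisons share their libraries with the contrast that chose the genes, here and below, so nothing is read from the excess.

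A weaker rise did not always end at a lower level. The most abundant gene that rose less took 0.000746% and 0.000859% of the counts in control cells at day 0 and 0.414% and 0.411% at day 3. Its share in 7-day cells was 0.00251% and 0.00204% at day 0 and 0.718% and 0.673% at day 3. It was higher in 7-day cells at both days, by 1.46 log2 units at day 0 (SE 0.0919) and by 0.745 at day 3 (SE 0.0475, adjusted p = 2.46e-15). Its log2 response was 8.99 in control and 8.28 in 7-day cells, a difference of -0.711 (SE 0.105, adjusted p = 4.31e-06). This gene and the most abundant members of other classes below were singled out after their values were seen.

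Genes that fell less started lower in 7-day cells. Their share was 7.46% and 7.37% in control cells at day 0 and 3.93% and 3.96% at day 3, against 6.68% and 6.78% and then 4.35% and 4.44% in 7-day cells. The most abundant of them took 2.05% in control and 2.04% in 7-day cells at day 0. That log2 difference of -0.0575 (SE 0.0347) did not pass the test (edgeR adjusted p = 0.257). The other 158 genes took 5.36% at day 0 and 2.45% at day 3 in control cells. In 7-day cells they took 4.69% and 2.73% (means of 2 libraries). At day 0 112 of the 159 were lower in 7-day cells and 13 higher, and at day 3 52 were higher, 18 lower and 89 did not pass. Over all genes tested 11.3% were lower and 11.7% higher at day 0, and 6.75% higher and 7.43% lower at day 3. The median difference between 7-day and control cells was -0.389 log2 units at day 0 and 0.112 at day 3.

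A stronger response in the same direction was found in 287 genes, of which 180 rose more and 107 fell more. The median rise was 1.72-fold in control and 2.57-fold in 7-day cells, and the median fall 1.63-fold and 2.26-fold. This count was 186 without the second control library of day 3. Genes that rose more were an abundant set, with 6.87% of the counts in each control library at day 0 and 11.4% and 11.3% at day 3. In 7-day cells they took 5.89% and 5.94% at day 0 and 12.2% in each library at day 3. At day 0 127 of the 180 were lower in 7-day cells and 5 higher, while at day 3 61 were higher, 20 lower and 99 did not pass. Among all genes tested 11.3% were lower and 11.7% higher at day 0, and 6.75% higher and 7.43% lower at day 3.

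The most abundant gene that rose more shows this form. It took 0.662% and 0.644% of the counts in control cells at day 0 and 0.547% and 0.553% in 7-day cells, a log2 difference of -0.297 (SE 0.0360, adjusted p = 3.93e-08). At day 3 it took 1.38% in both control libraries and 1.41% and 1.45% in the 7-day libraries, a log2 difference of 0.0404 (SE 0.0359) that did not pass the test (adjusted p = 0.554).

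Genes that fell more went the other way. They took 3.10% of the counts in each control library at day 0 and 1.70% at day 3, against 3.56% and 3.58%, then 1.49% and 1.51%, in 7-day cells. Of the 107 genes 49 were higher and 12 lower in 7-day cells at day 0, and 59 were lower and 4 higher at day 3. For all genes tested these shares were 11.7% and 11.3% at day 0, and 7.43% and 6.75% at day 3.

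**Figure D3:**
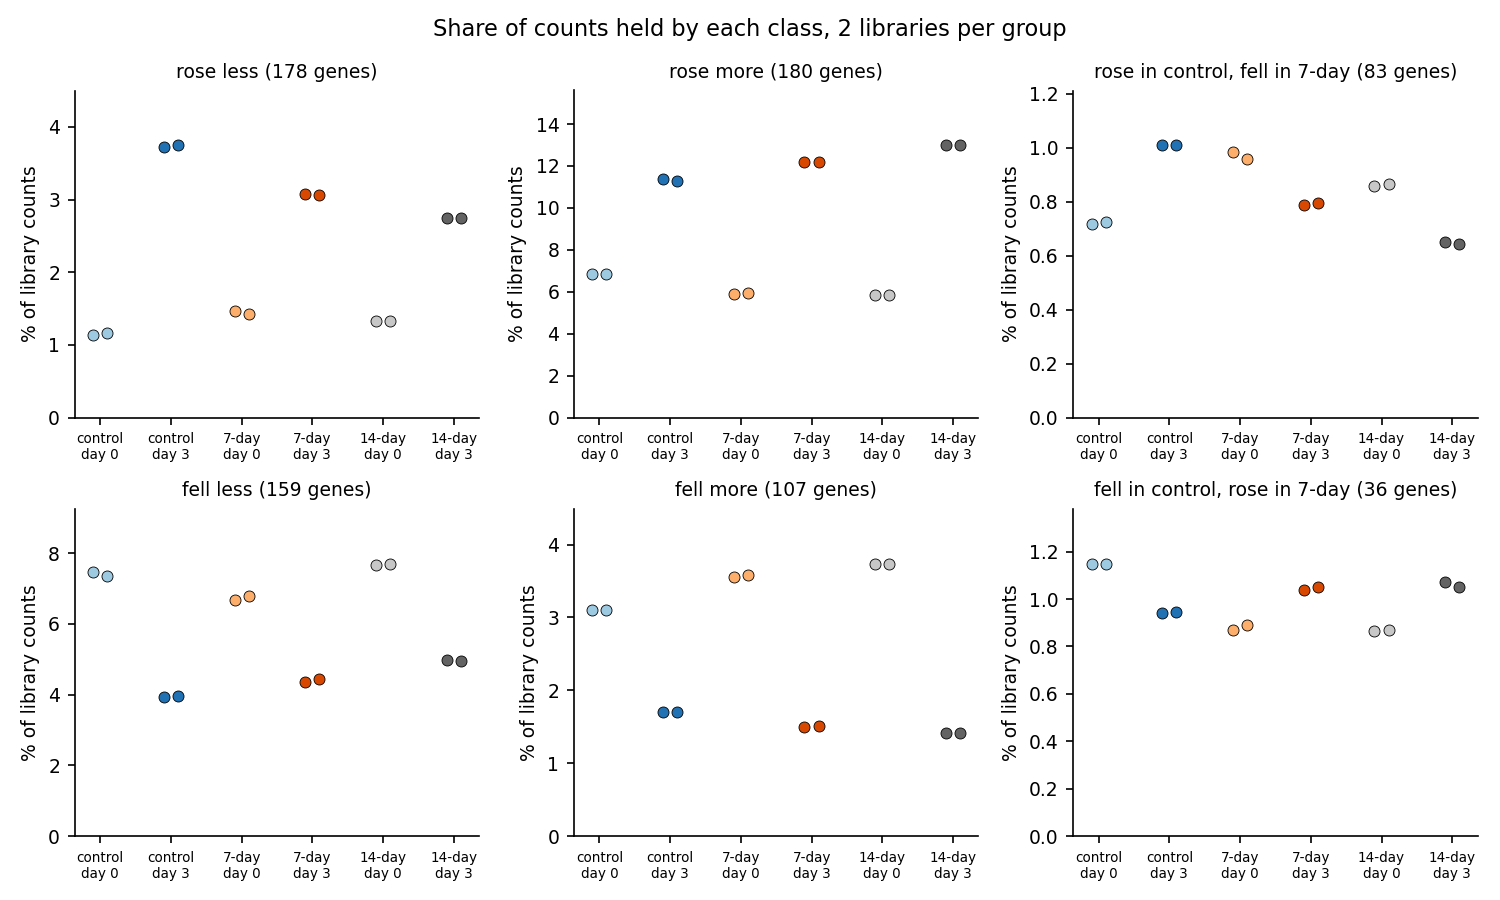
Points are the percentage of all counts of a library held by the genes of a class, 2 libraries per group, with each axis starting at 0. Genes that rose less go from 1.14% and 1.16% to 3.72% and 3.75% in control cells and from 1.46% and 1.43% to 3.07% and 3.06% in 7-day cells; the 14-day libraries bear on the choice of genes only through the filter, the scaling and the estimate of the spread.

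In 119 genes the direction was reversed, each response passing the test on its own. Of these, 83 rose in control and fell in 7-day cells, and 36 fell in control and rose in 7-day cells. Most of these responses were small: the smaller of the 2 had a median of 0.30 log2 units in size, and in 20 genes both were at least 1.5-fold. Of those 20 genes, 19 rose in control and fell in 7-day cells. With genes at or under 3 reads in a group left out, 7 genes changed at least 2-fold in both directions, all of them rising in control cells. These 7 were scarce: the median gene went from 1.71 to 8.04 CPM in control and from 2.21 to 0.868 CPM in 7-day cells.

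The 83 genes that went from rise to fall took 0.718% and 0.726% of the counts in control cells at day 0 and 1.01% in each library at day 3. In 7-day cells they took 0.983% and 0.959% at day 0 and 0.787% and 0.795% at day 3. The 7-day libraries at day 0 stood almost where the control libraries stood at day 3. At day 0 59 of the 83 were higher in 7-day cells and 6 lower, and at day 3 36 were lower and 3 higher. For all genes tested these shares were 11.7% and 11.3% at day 0, and 7.43% and 6.75% at day 3. In 14-day cells, whose levels are not part of the contrast, 63 of the 83 fell between day 0 and day 3 and 0 rose. Over all genes 28.1% fell in 14-day cells.

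The 36 genes that went from fall to rise took 1.15% of the counts in each control library at day 0 and 0.940% and 0.947% at day 3. In 7-day cells their share was 0.868% and 0.889% at day 0 and 1.04% and 1.05% at day 3. At day 0 34 of them were lower in 7-day cells and 0 higher. At day 3 19 were higher and 2 lower. Among all genes tested 11.3% were lower and 11.7% higher at day 0, and 6.75% higher and 7.43% lower at day 3. In 14-day cells 29 of the 36 rose and 4 fell, where 27.7% of all genes rose.

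The response passed the test in control cells alone in 324 called genes, 203 of which rose and 121 fell. It passed in 7-day cells alone in 297, of which 122 rose and 175 fell. The 203 genes had a median log2 response of 0.604 in control and -0.0497 in 7-day cells, and -0.0180 in 14-day cells. At day 0 108 of them were higher in 7-day cells and 8 lower, and at day 3 98 were lower and 7 higher. The 175 genes that fell in 7-day cells alone were higher there at day 0 in 119 cases and lower in 8. At day 3 53 were lower and 0 higher. Their median log2 response was 0.0900 in control, -0.665 in 7-day and -0.662 in 14-day cells. Over all genes tested 11.7% were higher and 11.3% lower in 7-day cells at day 0, and 7.43% lower and 6.75% higher at day 3.

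Genes that fell in control cells alone held 1 very abundant member. It took 2.61% and 2.50% of the counts in control cells at day 0 and 1.81% and 1.77% at day 3. Its share in 7-day cells was 1.46% and 1.70% at day 0 and 1.45% and 1.49% at day 3. The 7-day libraries were below the control libraries at both days, and their response of -0.0773 log2 units (SE 0.0448) did not pass the test (adjusted p = 0.150). The difference of the responses was 0.445 (SE 0.0634, adjusted p = 2.38e-06). The other 120 genes together took 1.90% ± 0.0300 and 1.50% ± 0.0113 in control cells and 1.55% ± 0.00783 and 1.54% ± 0.0215 in 7-day cells (SD, n = 2).

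**Figure D4:**
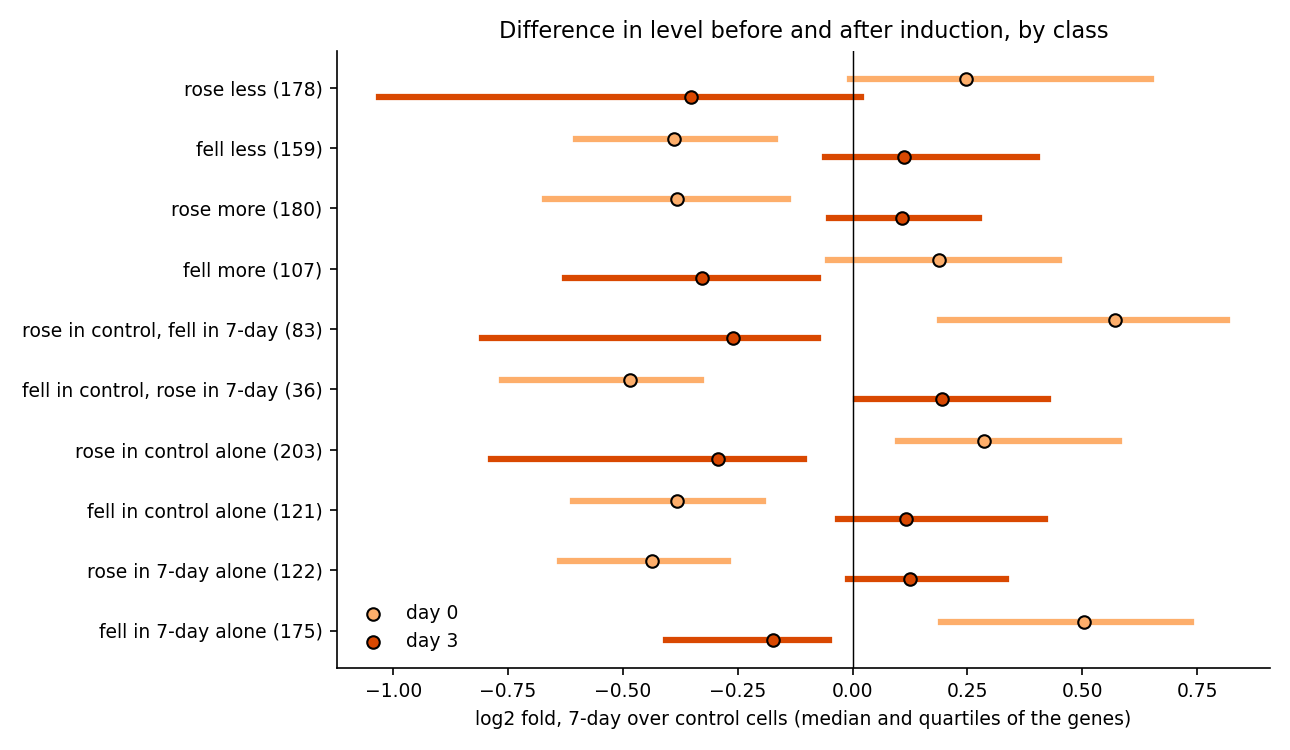
Points are the median log2 fold of 7-day over control cells at day 0 and at day 3 over the genes of each class, and bars span the quartiles of the genes; the number of genes stands beside each class. In each class the medians lie on opposite sides of 0, as in genes that rose less, at 0.248 at day 0 and -0.352 at day 3. The genes were chosen on the day 3 difference minus the day 0 difference in these libraries, which favours opposite signs.

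More of the 1371 genes passed the test of their levels before induction than after it, in comparisons that share libraries with the contrast. The same held over all genes tested. At day 0 951 of the 1371 (69.4%, against 23.0% of all genes tested) were higher or lower in 7-day than in control cells, 453 higher and 498 lower. At day 3 the number was 638 (46.5%, against 14.2% of all), 232 higher and 406 lower. This changed with the size of the difference. Of the 661 genes whose responses differed by less than 1.5-fold 70.8% differed at day 0 and 40.1% at day 3. Of the 89 genes that differed at least 4-fold 52.8% did so at day 0 and 74.2% at day 3. Whether these shares differ from each other was not tested. The sets also differed in level. At day 0 the median gene of the 661 stood at 104 CPM in control and 98 CPM in 7-day cells. For the 89 genes these medians were 1.71 and 2.3 CPM at day 0, and 5.31 and 2.62 CPM at day 3. A difference is harder to detect in scarce genes, so the shares of these sets are not on an equal footing.

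**Figure D5:**
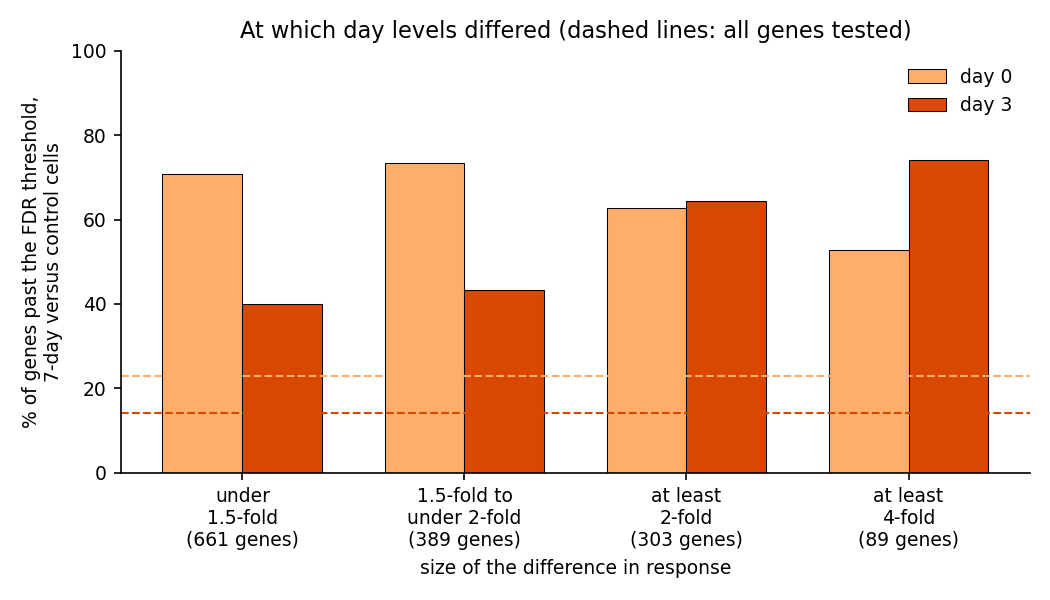
Bars are the percentage of called genes that differed between 7-day and control cells at day 0 and at day 3, by the size of the difference in response; the group of at least 2-fold includes that of at least 4-fold, and both leave out genes at or under 3 reads in a group. Dashed lines mark all genes tested, 23.0% at day 0 and 14.2% at day 3. The genes of the larger differences are scarcer, so the bars are not on an equal footing.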

How the data were processed

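The authors deposited raw counts for 32622 Ensembl rat genes in 12 libraries, made with a TruSeq stranded mRNA kit and read at 51 bp, per the labels. Build Rnor_6.0 and the tools FastQC 0.11.9, STAR 2.7, featureCounts 1.6.4 and DESeq2 come from the submitters' processing notes. Their settings, and whether strand was used, were not given in the sources used here, so overlapping genes and near-identical copies may share counts.

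Genes were kept by filterByExpr (13215), libraries scaled by TMM, and 6 group means fitted to all 12 libraries with edgeR 4.0.16 in R 4.3.3 (glmQLFit, glmQLFTest, two-sided, 6 residual degrees of freedom). To these the tests and intervals add prior degrees of freedom, which edgeR estimates from the spread over all genes. Adjusted p-values are Benjamini-Hochberg over all genes tested, within each comparison. CPM are on TMM-scaled libraries. An SE is the fitted log2 difference over the root of its F statistic. The fit was tested on simulated data. Of counts from 1 to 20, 68.28% to 70.14% were even numbers in the 8 libraries, so reads may have been counted in pairs and counts were also halved. Separation of libraries was judged on log2(CPM + 0.25).

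Of the rule for named genes only the part that needs no symbol could be used: the 2 largest differences of each sign among called genes with over 3 reads in each group and at least 5 CPM in one. The 37 gene lists, including cell type markers, were not used here for want of symbols, and neither were promoter sequences. The contrast, classes and lists were chosen with earlier results of these data known. Alternatives were other scalings, filters, DESeq2 1.42.0, the 8 libraries alone, halved counts, a replicate block and leaving out each library.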

Additional observations from a re-analysis of the deposited data

Results flagged for a closer look

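The difference between the responses of 7-day and control cells was itself tested (edgeR, FDR 0.05), and 1371 genes passed. The 4 genes named had log2 differences of 3.46 (ENSRNOG00000023548), 3.15 (ENSRNOG00000012546), -7.15 (ENSRNOG00000049388) and -5.59 (ENSRNOG00000010079). With 2 libraries in a group, no library can be told to stand apart from its own group.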

How the results depend on the processing

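Over 16 alternatives, 8 of which left out 1 library, 706 genes passed the threshold in each with the same sign, 302 more positive and 404 more negative. Without leaving out libraries the count of 1371 ranged from 1170 (only the 8 libraries of the contrast) to 1461 (no filter on low counts); DESeq2 gave 1257, halved counts 1357 and scaling to the total count 1436, with 35.7% of the calls more positive against 45.3%. Leaving out 1 library gave 1005 to 1559, the lowest without the second control library of day 3. There the number of stronger responses also moved the most, and over the 8 such fits it ranged from 186 to 324, with fewer samples in each fit. A group reduced to 1 library is assumed to vary like the others. The other class counts stayed within 1.5 times their main value. The 4 named genes kept their sign and passed under each alternative, with a highest adjusted p of 0.0363, for ENSRNOG00000012546 with a library left out. The labels do not say that replicate numbers pair the libraries, and deviations of same-numbered libraries correlated at -0.0206 to 0.0411 over genes; with a replicate block 1285 genes were called, 1279 of them shared with the fit without it. Depth limits scarce genes most.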

Other observations

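For genes silent before induction the contrast has no defined size, though they were among the genes tested. In 26 genes both the control and the 7-day libraries had 0 reads at day 0, so the responses have no ratio to compare. At day 3 15 of the 26 differed between 7-day and control cells (edgeR, FDR 0.05), 14 of them lower and 1 higher in 7-day cells, where 7.43% of all genes tested were lower at day 3. These genes had to reach the filter through later levels or through 14-day cells, so the count is a description. Among all called genes, 18 had at most 3 reads in at least 1 group, 9 of them with a more positive and 9 with a more negative response. The median of their highest group level was 1.49 CPM. The 26 genes above were not left out of this count.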
